A study of Mus musculus with 1 sample.

Results

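The genes described here are 38 heat shock proteins, chaperonin subunits and their partners, measured in single cells of 1 wild-type mouse gastric organoid library. They were chosen by name from the 32285 genes of the deposited table and each name matched exactly 1 gene. The 10 genes treated as inducible were Hspa1a, Hspa1b, Hsph1, Hspb1, Hspb8, Hsp90aa1, Dnajb1, Dnajb4, Bag3 and Chordc1. The other 28 were treated as constitutive, although several of them are also known to respond to heat. Most work in the cytosol, and 4 of the constitutive genes (Hspa9, Hspd1, Hspe1 and Trap1) encode the mitochondrial counterparts.

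Gastric organoids are epithelial cultures that grow in a gel from stomach cells. The single group had a wild type genotype and no treatment, and the labels gave epithelial cells as its cell type. It was harvested 7 days after seeding, and the cells were separated in 0.05% trypsin-EDTA for 30 min at 37 °C before 3′ droplet sequencing. No undigested or heated sample was analysed here, and there was 1 library, so no level could be set against an unstressed control and no difference was tested across replicates.

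Chaperones bind unfolded proteins and help them fold, refold or be handed on for degradation. Hsp70 proteins work in cycles of ATP use that J-domain proteins start and nucleotide exchange factors end, Hsp90 proteins finish the folding of kinases and receptors, and the TRiC chaperonin folds actin and tubulin inside a closed ring. Under heat or other protein damage, heat shock factor 1 (encoded by Hsf1) binds repeated GAA units in the promoters of inducible chaperone genes and raises their transcription. Digestion of tissue at body temperature is a known setting for stress genes in single-cell data, and whether it contributed to any level below was not tested.

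The promoter sequences show how the inducible genes differ in this element. Windows of 300 bases, from 250 before to 50 after the start, were taken from RefSeq (GRCm38.p6) for 31 of the 38 genes, in 40 windows because some genes have several starts. Hsp90aa1, Hspa8, Hsp90ab1, St13, Hsf1, Cct4 and Hspa9 were not matched. The Hspa1a and Hspa1b stretches are printed because the pair shares almost all of its promoter, and the Hspb1 stretch because Hspb1 was the most abundant inducible gene. Capitals mark 2 head-to-head or tail-to-tail units, GAANNTTC or TTCNNGAA.
Hspa1a (chr17:34972216-34972371, minus strand): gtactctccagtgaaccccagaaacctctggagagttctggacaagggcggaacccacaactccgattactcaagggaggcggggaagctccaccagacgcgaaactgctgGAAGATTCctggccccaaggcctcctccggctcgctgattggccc
Hspa1b (chr17:34959298-34959453, minus strand): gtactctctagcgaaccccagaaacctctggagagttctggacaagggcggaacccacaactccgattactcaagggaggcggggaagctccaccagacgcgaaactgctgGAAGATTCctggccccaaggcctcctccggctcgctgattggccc
Hspb1 (chr5:135887769-135887859, plus strand): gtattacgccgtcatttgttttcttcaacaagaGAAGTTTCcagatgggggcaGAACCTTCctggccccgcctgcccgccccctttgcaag

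The 300-base windows of Hspa1a and Hspa1b were 98.7% identical and differed at 4 positions, C44T, T47C, T249G and C276T, with the Hspa1a base first and positions counted from 1 at the 5′ end of the window. Both hold the same GAAGATTC at -104 to -97 from the start. Hspb1 holds 2 such pairs, at -117 to -110 and at -97 to -90.

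Longer runs of the element are printed next, as 30-base stretches, for the genes where at least 3 units follow each other. Capitals mark the run, which is GAANNTTC followed by NNGAA, or TTCNNGAA followed by NNTTC. Each run contains shorter pairs, and in Hspe1 and Chordc1 it extends further. All 30 bases of each stretch lie within exons annotated by GENCODE, counted on either strand.
Hspe1 (chr1:55088053-55088082, plus strand): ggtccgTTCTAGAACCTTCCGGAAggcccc
Chordc1 (chr9:18292260-18292289, plus strand): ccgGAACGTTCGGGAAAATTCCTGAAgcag
Hsph1 (chr5:149636287-149636316, minus strand): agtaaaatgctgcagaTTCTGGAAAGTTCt
Dnajb6 (chr5:29735844-29735873, plus strand): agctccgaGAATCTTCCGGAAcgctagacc

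A pair of units was present in 16 of the 31 genes, and in 16.97% of the 27025 genes of the RefSeq table. Among the inducible genes 8 of 9 held a pair (Hspa1a, Hspa1b, Hsph1, Hspb1, Hspb8, Dnajb4, Bag3 and Chordc1), and among the constitutive genes 8 of 22 did (Dnaja1, Dnajb6, Cdc37, Cct2, Cct5, Cct6a, Hspd1 and Hspe1). Runs of 3 units were present in 5 of the 31 genes (Hsph1, Chordc1, Dnajb6, Hspd1 and Hspe1) and in 0.662% of all genes. Runs of 4 units, of 18 letters, were present in Chordc1, Hspd1 and Hspe1, 3 of 8 such genes in the whole table. The Hspd1 and Hspe1 runs are 1 site, chr1:55088059-55088076, read from opposite strands, because these genes start next to each other and point away from each other. A match is a match of letters, on either strand, and says nothing on whether heat shock factor 1 was bound. In 32851 windows counted singly, a pair was present in 15.1%.

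**Figure D1:**
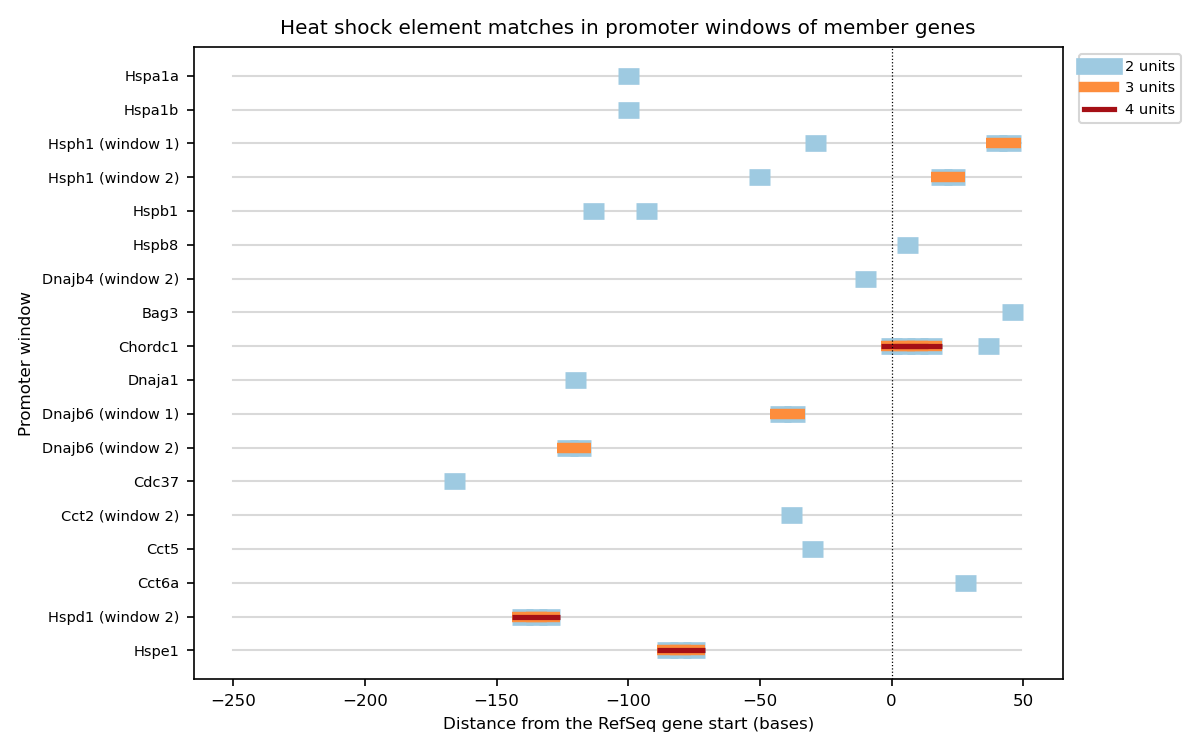
Positions of matches to 2, 3 or 4 heat shock element units (bar colour) in each promoter window that holds one, with distance from the RefSeq start in bases on the horizontal axis and the gene and window on the vertical axis. The single pairs of Hspa1a and Hspa1b lie at the same distance, -104 to -97, and the only runs of 4 units are in Chordc1, Hspd1 and Hspe1.

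The library held 1991 barcodes, of which 1892 had at least 500 genes and at most 20% of UMIs (unique molecular identifiers, 1 for each captured mRNA molecule) from mitochondrially encoded genes. After 12 called doublets were removed, 1880 cells were used for all results. They held 19951439 gene UMIs, from 890 to 47183 per cell, and the median was 8475.5. The epithelial keratin Krt18 was detected in 99.6% of cells and Epcam in 96.5%. Of 11 genes that epithelium lacks, 5 were at 0 UMIs, and Pecam1 had the most, with 3 UMIs. Levels below are UMIs per 1000000 gene UMIs (CPM), summed over cells, and 95% intervals cover counting error only. A UMI comes from the 3′ end of a molecule whatever its length, so CPM were compared between genes without scaling by length.

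The constitutive list summed to more than the inducible list, and it holds more genes. The 28 constitutive genes summed to 7023 CPM (6986 to 7060) and the 10 inducible genes to 1496 CPM (1479 to 1513), or 21.3 inducible UMIs for every 100 constitutive UMIs (21.0 to 21.6). All 38 genes were detected, and together they held 0.852% of all gene UMIs. Of the inducible sum, 56.8% came from Hspb1 and 27.97% from Hsp90aa1. Without Hspb1 the other 9 inducible genes summed to 645 CPM (634 to 657), and 8.20 of their UMIs were found per 100 UMIs of all other chaperones, Hspb1 included. If Dnaja1, Hspa8, Hspa4l, Hspd1, Hspe1, Stip1 and Ahsa1 were also counted as inducible, the ratio became 83.1 to 100. Per gene, the median was 26.4 CPM over the 10 inducible genes and 134 CPM over the 28 constitutive genes, and the means were 149.6 and 251 CPM. With the wider inducible list the medians were 42.9 and 131 CPM, and the means 227 and 221 CPM.

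Hspb1, which encodes the small heat shock protein Hsp27 that holds unfolded proteins in solution, stood at 850 CPM (837 to 863) and ranked 163 among all genes. It was detected in 85.3% of cells, and 1 cell held 142 of its UMIs. Hsp90aa1, the inducible cytosolic Hsp90, stood at 418 CPM (409 to 427) and was detected in 91.0% of cells. These genes were thus present in most cells, unlike the remaining inducible genes. Hspb1 lies on chromosome 5 (135887919 to 135889563, plus strand) and Hsp90aa1 on chromosome 12 (110690605 to 110702728, minus strand) of GRCm38, as do all gene positions here, from GENCODE M21.

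Dnajb1, the J-domain partner of inducible Hsp70, stood at 86.2 CPM (82.1 to 90.3) in 43.9% of cells. The stress-inducible Hsp70 genes Hspa1b and Hspa1a stood at 42.2 CPM (39.4 to 45.2) and 34.0 CPM (31.5 to 36.7). Their share of cells with a UMI was 30.3% for Hspa1b and 23.0% for Hspa1a. After each cell had been thinned to 3000 UMIs, the shares were 12.2% and 7.57%, over 1823 cells. Every cell type here can transcribe chaperone genes, so the share that free RNA would give was not measured.

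The 5 lowest inducible genes were each under 20 CPM. Hsph1, an Hsp110 that releases nucleotide from Hsp70, stood at 18.8 CPM (16.9 to 20.8). Chordc1, an Hsp90 partner, and the J-domain gene Dnajb4 were both at 15.7 CPM (14.0 to 17.6). Bag3, which links Hsp70 to autophagy, stood at 11.4 CPM (9.95 to 13.0). Hspb8, the small heat shock partner of Bag3, was the lowest of all 38 genes at 3.11 CPM (2.38 to 3.98), from 62 UMIs in 2.82% of cells. The inducible genes thus spanned from the lowest to the third highest place among the 38.

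Among constitutive genes, the cytosolic Hsp90 gene Hsp90ab1 was the highest of all 38, at 1871 CPM (1852 to 1890) in 99.4% of cells. The constitutive Hsp70 gene Hspa8 followed at 1223 CPM (1208 to 1239) in 98.5% of cells. Hsp90ab1 was thus above the inducible Hsp90aa1, and Hspa8 above the inducible Hspa1a and Hspa1b. The Hsp110 genes Hspa4 and Hspa4l stood at 129 CPM (124 to 134) and 42.9 CPM (40.0 to 45.8), and Hspa14, an Hsp70 of the ribosome-associated complex, at 19.3 CPM (17.4 to 21.3).

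The J-domain genes Dnajb6, Dnaja1 and Dnaja2 stood at 299, 200 and 131 CPM. Of the co-chaperones, St13 (which stabilises the ADP-bound state of Hsp70) stood at 263 CPM, Ptges3 (the Hsp90 co-chaperone p23) at 241 CPM, Bag1 (a nucleotide exchange factor) at 197 CPM and Cdc37 (which brings kinases to Hsp90) at 136 CPM. Stip1, which joins Hsp70 to Hsp90, and Ahsa1, which activates the Hsp90 ATPase, were lower, at 61.0 and 42.8 CPM. Hspbp1, a nucleotide exchange factor, was at 8.62 CPM and Hsf1 itself at 11.3 CPM (9.90 to 12.9). The transcription factor of the heat shock response was thus among the 3 lowest of the 38 genes.

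The 8 subunits of TRiC occur once in each ring of the protein complex, but their mRNA levels spanned from 78.4 CPM (74.6 to 82.4) for Cct3 to 267 CPM (260 to 274) for Cct2. Between these were Cct5 at 221, Cct7 at 175, Tcp1 at 152, Cct8 at 122, Cct6a at 99.9 and Cct4 at 92.1 CPM. No intervals overlapped except those of Cct6a and Cct4, at 95.6 to 104 and 88.0 to 96.4 CPM. The mitochondrial chaperonin showed a similar gap between partners. Hspe1, the lid, stood at 580 CPM (570 to 591) and Hspd1, the barrel, at 222 CPM (215 to 228). The 2 genes overlap head to head on chromosome 1, Hspd1 at 55077835 to 55088243 on the minus strand and Hspe1 at 55088132 to 55091307 on the plus strand. Hspa9, the mitochondrial Hsp70, and Trap1, the mitochondrial Hsp90, stood at 117 and 20.2 CPM. Several chaperone genes, Hspa8 and Hspe1 among them, have processed copies elsewhere in the genome, and how reads that match such copies were counted is not given in the sources used here.

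**Figure D2:**
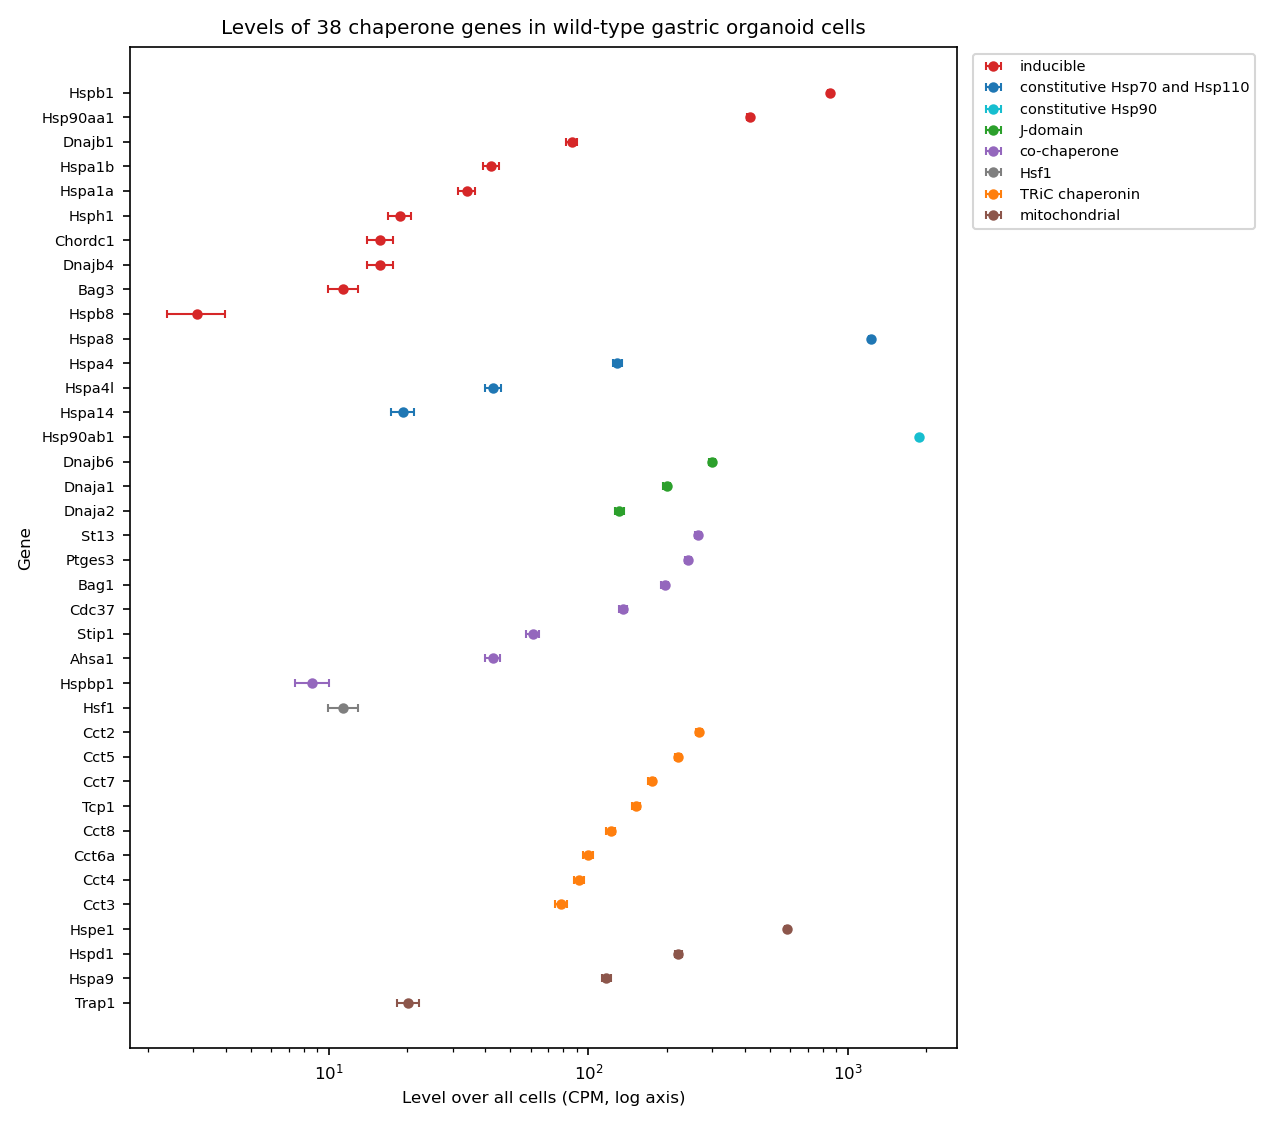
Level of each of the 38 genes in CPM over all cells (log axis), with 95% Poisson intervals for counting error and colours for roles. Hsp90ab1 (1871 CPM) and Hspa8 (1223 CPM) lead, Hspb1 (850 CPM) and Hsp90aa1 (418 CPM) lead the inducible genes, and Hspb8 (3.11 CPM) is lowest.

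The inducible Hsp70 pair was thinly spread over many cells. No UMI of either gene was found in 1077 cells (57.3%), Hspa1a alone in 233, Hspa1b alone in 370 and both in 200. Most cells with the pair held little of it, and 446 cells held a single UMI. At least 5 summed UMIs were found in 47 cells, at least 10 in 3 cells, and the highest cell held 12. Both genes lie on the minus strand of chromosome 17, Hspa1b at 34956436 to 34959238 and Hspa1a at 34969190 to 34972156. The last 300 bases of the annotated transcripts of the pair were only 52.8% identical, against 85.5% over the whole, so reads near the 3′ end can be told apart.

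Cell-to-cell spread was compared with other genes at the same mean, as variance over mean in thinned counts divided by the running median of all genes. Of 33 members with a thinned mean of at least 0.05 UMIs per cell, 2 were at least 25% above that median, against 4.6% of 4976 genes. The genes were Hspb1 at 3.29 and Hspa1a at 1.27, with Dnajb1 just outside at 1.249. The median was 0.981 over the 33 members and 1 over all genes. Most members had a thinned mean below 1 UMI per cell, where counting noise makes up most of the variance of any gene. A ratio near 1 at such means therefore says little on how much a gene differs between cells. The 8 TRiC genes lay between 0.907 and 1. Hspb1 alone stood far out, with 34 genes of 4976 above it. Only Hspb1 was called under every setting tried: thinning to 2000 UMIs left 1 call, and thinning to 5000 UMIs gave 4, Hspb1, Hsp90aa1, Dnajb1 and Hspd1. Without cluster 7, described below, the 2 calls were Hspb1 and Dnajb1. The share of all genes called is given only for the main setting, so these other counts have no background beside them.

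In thinned counts, the median cell held 1 Hspb1 UMI, the quartiles were 0 and 4, and the highest cell held 26. No Hspb1 UMI was found in 29.3% of these cells, and 10 or more in 5.10%. Hspa8, at a similar mean (3.61 against 2.68 UMIs per cell), was at 0 in 4.44% of cells and at 10 or more in 1.65%. The tenth of cells richest in Hspb1 held 41.1% of its thinned UMIs, and the same share was 22.6% for Hspa8 and 21.6% for Hsp90ab1.

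**Figure D3:**
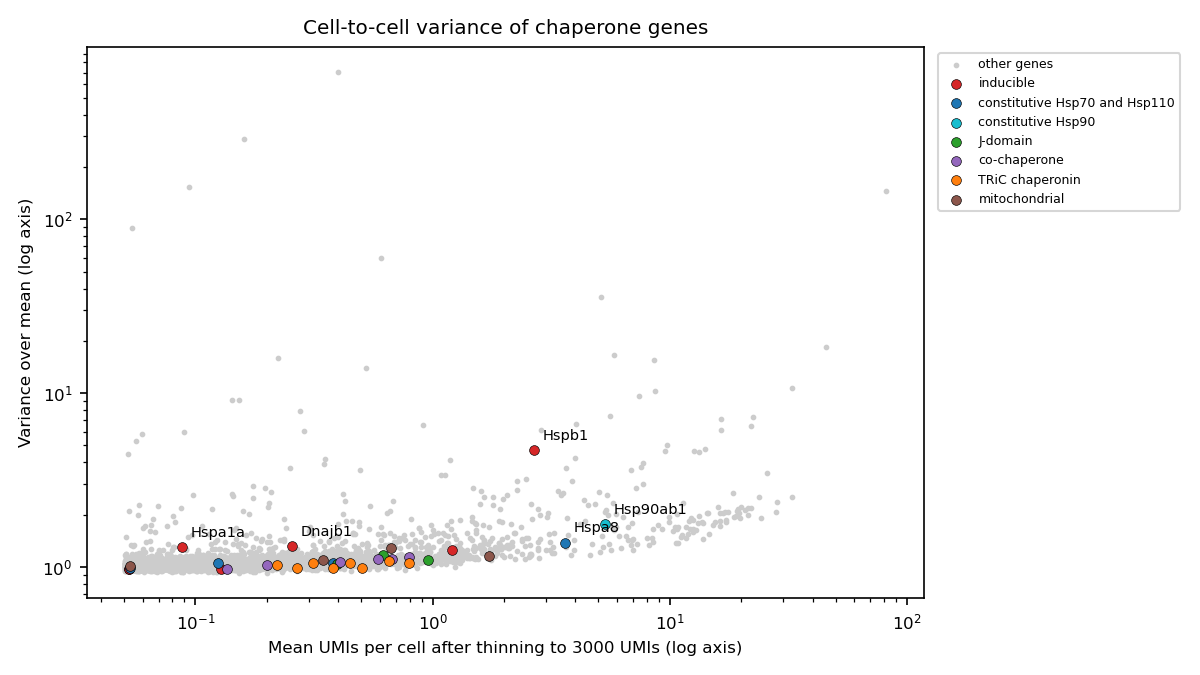
Variance over mean of thinned UMIs against mean UMIs per cell (both log axes), for 4976 genes (grey) and the 33 members among them (coloured by role). Hspb1, at 3.29 times the running median, lies above the band that holds the other members.

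Cells were clustered without any of these genes, the other chaperone lists, immediate early, cell cycle, sex-linked or mitochondrially encoded genes, which gave 7 clusters. Their leading genes by fold were Aox3 and Scgb3a1 in cluster 1 (455 cells), Ly6m and Sprr1a in cluster 2 (424 cells), Cxcl5 and Cxcl2 in cluster 3 (325 cells) and 2610528A11Rik and Mt1 in cluster 4 (303 cells). Psca and Prss22 led cluster 5 (217 cells), Aspm and Knl1 cluster 6 (92 cells, all called S or G2M), and Cyba and Reg3g cluster 7 (64 cells). Median depth ran from 5830 UMIs in cluster 4 to 14008.5 in cluster 7. Cluster 7 stands apart: 33 of its 64 cells held a UMI of a Y-linked gene, against at most 1.54% of cells in any other cluster. Its summed pit cell markers were at 5151 CPM against at most 266 CPM elsewhere. Mucous neck markers, at 58.5 against at most 26.7 CPM, and chief cell markers, at 53.6 against at most 2.12 CPM, were also highest there. The chief markers Cblif and Pga5 were at 0 UMIs in all clusters. Xist was at 62.5 CPM there and between 291 and 606 CPM in the other clusters, and whether its cells came from the same animals as the others was not tested. Of its cells 62.5% were called S or G2M, and its summed proliferation markers were at 912 CPM, against 1613 CPM in cluster 6 and at most 144 CPM in clusters 1 to 5. Results are therefore given with and without it where it matters.

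The inducible sum differed 2.07-fold (1.96 to 2.19) between the highest and lowest cluster, and Hspb1 set most of the pattern. The sum was 1766, 982, 1924, 960, 1992, 1773 and 1111 CPM in clusters 1 to 7. Hspb1 alone was at 1225, 371, 1156, 478, 1382, 949 and 189 CPM. Hspb1 was thus higher in clusters 1, 3, 5 and 6 than in clusters 2, 4 and 7, with no overlap of intervals between these sets. From highest to lowest the ratio was 7.30 (6.296 to 8.497) over the 7 clusters and 3.73 without cluster 7. Without Hspb1, the other inducible genes summed to 541, 611, 768, 482, 609, 824 and 922 CPM, highest in clusters 7 and 6.

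Hsp90aa1 was lowest in clusters 4 and 1, at 296 and 327 CPM, and highest in clusters 6 and 7, at 617 and 743 CPM. Clusters 2, 5 and 3 lay between, at 363, 401 and 508 CPM. Without Hspb1 and Hsp90aa1, the remaining 8 inducible genes summed to 179 CPM in cluster 7, their lowest, and 260 CPM in cluster 3, their highest, a ratio of 1.46 (1.24 to 1.72). Single genes among them differed more. Hspb8 differed 6.69-fold (1.69 to 57.9), on few UMIs, with or without cluster 7. Hspa1a differed 5.18-fold with its lowest level in cluster 7, and 2.32-fold without that cluster. Hsph1 differed 2.87-fold with its highest level there, and 2.13-fold without it.

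Hspa1a and Hspa1b, despite their shared promoter sequence, differed in their ratio between clusters. Hspa1a was at 22.1, 51.3, 32.3, 38.9, 28.1, 26.6 and 9.92 CPM in clusters 1 to 7, and Hspa1b at 38.8, 49.5, 48.9, 30.1, 39.2, 25.04 and 41.7 CPM. Over all cells there were 0.806 Hspa1a UMIs per Hspa1b UMI (0.728 to 0.893). The ratio was 1.04 (0.873 to 1.23) in cluster 2, 0.570 (0.437 to 0.738) in cluster 1 and 0.238 (0.107 to 0.482) in cluster 7. The cluster 7 value rests on 10 and 42 UMIs. The intervals of clusters 1, 3 and 7 do not overlap that of cluster 2, and those of clusters 2, 4, 5 and 6 include 1.

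The constitutive sum differed 1.4996-fold (1.46 to 1.54), from 5573 CPM in cluster 4 to 8357 CPM in cluster 7. That was less than the inducible sum with or without Hspb1, at 2.07-fold and 1.91-fold. It was close to the 1.46-fold of the inducible genes without Hspb1 and Hsp90aa1. TRiC as a whole differed 1.31-fold, from 1066 to 1401 CPM in the same clusters. Within TRiC, Cct2 differed 1.26-fold between its highest and lowest cluster and Cct3 2.97-fold, from 43.4 to 129 CPM. Hspa8 and Hsp90ab1 were both lowest in cluster 4, at 879 and 1252 CPM, and next lowest, cluster 7 aside, in cluster 2, at 1043 and 1604 CPM. In cluster 7 they parted, with Hspa8 at 943 CPM and Hsp90ab1 at its highest, 2705 CPM.

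**Figure D4:**
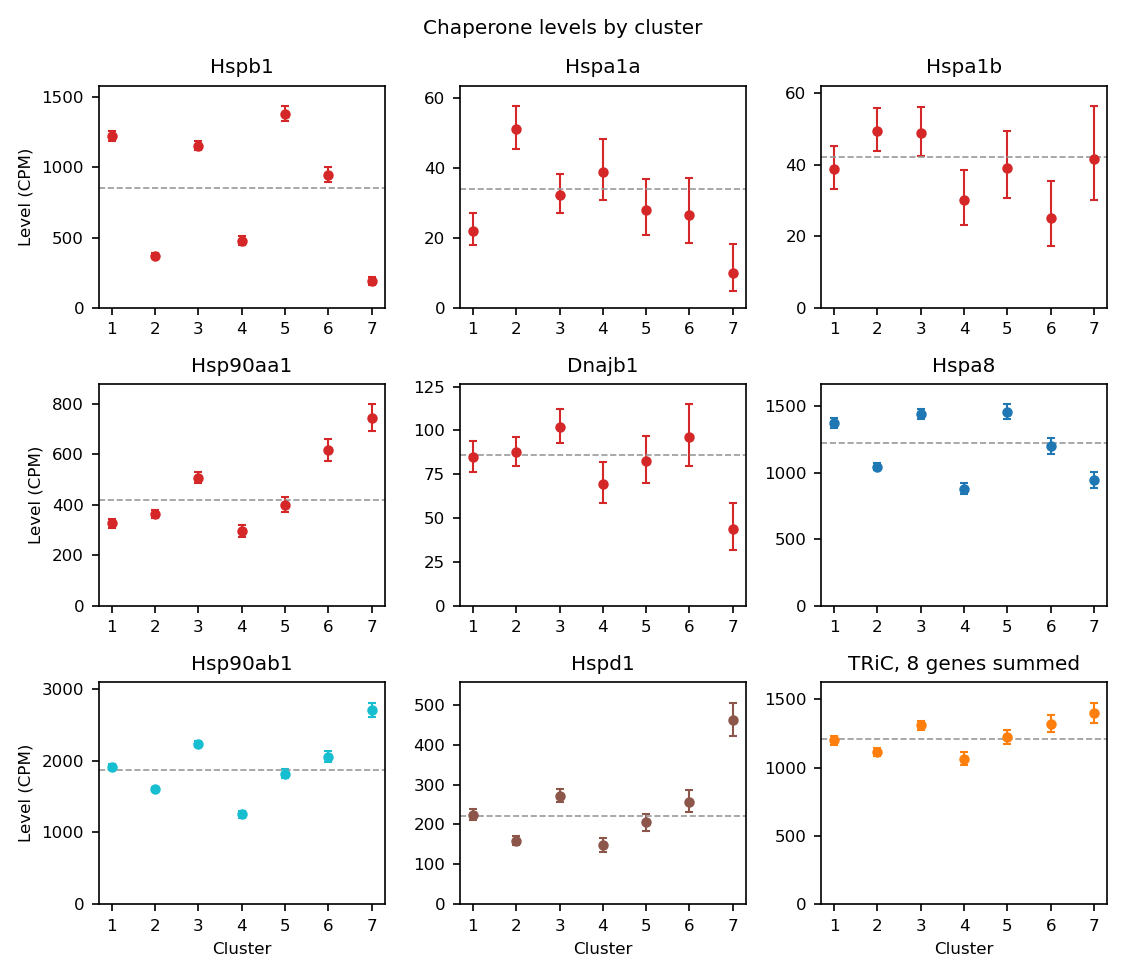
Levels in CPM (each vertical axis starts at 0) of 8 genes and of the 8 TRiC genes summed, in clusters 1 to 7, with 95% Poisson intervals for counting error and the level over all cells as a dashed line. Hspb1 drops to 371, 478 and 189 CPM in clusters 2, 4 and 7, while Hspd1 and Hsp90aa1 peak in cluster 7 at 462 and 743 CPM.

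For each cluster against the others, a gene was called where its CPM differed by at least 1.5-fold and the interval of the ratio left out 1, among 10109 genes with at least 50 UMIs. All 38 members met that minimum. In cluster 1, 2 members were called higher, Hspb1 at 1.64-fold (1.58 to 1.69) and Hspb8 at 3.04-fold (1.78 to 5.17, from 28 and 34 UMIs), against 2.45% of all genes. Another 2 were called lower, Hspa1a at 0.594 (0.472 to 0.740) and Hspa4l at 0.598 (0.488 to 0.726), against 8.96%. Inducible genes thus lay in both directions in 1 cluster. Without cluster 7 the same 2 and 2 members were called, against 2.64% and 8.21%.

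In cluster 2 the directions of Hspa1a and Hspb1 were the opposite. Hspa1a was the 1 member called higher, at 1.85-fold (1.58 to 2.17), against 6.24% of all genes. The 4 members called lower, against 9.55%, were Hspb1 at 0.362 (0.345 to 0.379), Cct3 at 0.576, Hspd1 at 0.650 and Trap1 at 0.657. Without cluster 7, Hspd1 and Trap1 were no longer called and Hspb8 was, at 0.4999 (0.226 to 0.996), which gave 1 member higher against 6.58% and 3 lower against 7.83% of 9957 genes.

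In cluster 3, led by neutrophil chemokine genes, 4 members were called higher, against 11.1% of all genes, and none lower, against 3.49%. They were Hspb1 at 1.51-fold, Hspa4 at 1.51-fold (1.38 to 1.64), Hspbp1 at 1.70-fold (1.21 to 2.36) and Hsf1 at 1.60-fold (1.18 to 2.13). The share of members, 10.5%, was close to the background. Without cluster 7, Hspb1 fell just short and Hsph1, Cct3 and Trap1 were called as well, which gave 6 members higher against 12.3% and none lower against 2.82%.

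In cluster 4, the shallowest, no member was called higher, against 2.02% of all genes, and 6 were called lower, against 20.1%. The 6 were Hspb1 at 0.536, Cct3 at 0.526, Chordc1 at 0.569, Dnaja1 at 0.615, Hspd1 at 0.643 and Hsp90ab1 at 0.645. They made up 15.8% of the 38, below the background share. Without cluster 7, Hspd1 was no longer called, which left 5 members against 19.4%. In cluster 5, Hspb1 was called higher at 1.73-fold (1.66 to 1.81), 1 member against 1.64% of all genes. Hspa4l at 0.661 (0.491 to 0.873) and Hsf1 at 0.512 (0.252 to 0.934, from 11 UMIs) were called lower there, against 15.4%. Without cluster 7 the same 3 genes were called, against 1.87% higher and 14.3% lower.

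In cluster 6, where all cells were called S or G2M, Hsp90aa1 was higher at 1.52-fold (1.41 to 1.64) and Hspa14 at 1.84-fold (1.31 to 2.53), 2 members against 8.82% of all genes. Hspa1b was lower at 0.577 (0.392 to 0.821), 1 member against 2.64%. Hspa1a, at 26.6 CPM, was not called there. Without cluster 7 the same 3 genes were called, against 9.41% higher and 2.61% lower.

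Cluster 7 had the most members called. The 9 called higher, 23.7% of the 38 against 16.3% of all genes, were Hspd1 at 2.21-fold (2.01 to 2.44), Hspa14 at 2.18-fold (1.53 to 3.03), Hsph1 at 1.87-fold, Hsp90aa1 at 1.85-fold, Trap1 at 1.84-fold, Cct6a at 1.82-fold, Chordc1 at 1.77-fold, Cct3 at 1.70-fold and Stip1 at 1.66-fold. The 5 called lower, 13.2% against 9.35%, were Hspb1 at 0.214 (0.185 to 0.247), Hspa1a at 0.281 (0.134 to 0.520), Dnajb1 at 0.494 (0.357 to 0.666), Hspa4l at 0.520 (0.327 to 0.785) and Dnajb6 at 0.639 (0.552 to 0.737). Genes of the inducible list were thus in both sets. The summed immediate early genes, transcription factors and feedback genes that respond within minutes to many stimuli, were at 4493 CPM in cluster 7 and between 7034 and 10218 CPM in the other clusters. The summed S phase genes were at 3.20-fold and the summed G2M genes at 3.09-fold of the other clusters. The part of depth, the Y-linked and Xist signal, the cell cycle and the immediate early level in these differences was not tested.

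The median log2 ratio over the 38 members stood near that of all genes in most clusters. It was -0.20 in cluster 2 against -0.01 over all genes, 0.27 in cluster 3 against 0.17, and -0.32 in cluster 4 against -0.31. In cluster 7 it was 0.14 against 0.08. Of the 7 clusters, cluster 2 showed the greatest distance between the members' median and that of all genes.

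The library was pooled from suspensions marked with multiplexing tags, and the labels do not say which suspension each tag marks. Cells carried mainly CMO301 (1057 cells) or CMO302 (823 cells). Between them no member was called, against 0.831% of all genes higher and 0.752% lower in CMO302. The 25 members with at least 1000 UMIs had ratios of 0.905 to 1.06. The inducible sum was at 1484 CPM in CMO301 and 1510 CPM in CMO302, a ratio of 1.02 (0.995 to 1.04).

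Several of the cluster differences were compared within each tag. Hspb1 in cluster 2 was at 0.381 of the other clusters in CMO301 and 0.340 in CMO302. Hspa1a in cluster 2 was at 1.92-fold and 1.77-fold. Hspd1 in cluster 7 was at 2.37-fold and 1.96-fold, and Hsp90aa1 in cluster 6 at 1.53-fold and 1.496-fold. In CMO302 alone the interval included 1 for Hspa14 in cluster 6, at 1.097-fold (0.492 to 2.14) against 2.24-fold in CMO301, and in cluster 7, at 1.81-fold (0.941 to 3.19) against 2.41-fold. The same held for Hspa1b in cluster 6, at 0.563 (0.279 to 1.02) against 0.587. The tags are suspensions of 1 library and are not replicates of a condition.

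Between cell cycle phases few members passed the 1.5-fold threshold. In S or G2M cells against G1 cells, 1 member was called higher, Hspa14 at 1.93-fold (1.56 to 2.38), against 7.34% of all genes, and none lower, against 1.48%. Without regard to size, the interval lay above 1 for 15 of the 38 members and below 1 for 4, and without cluster 7 for 9 and 3. The share of all genes with such intervals is not given here, so these counts do not set the members apart from other genes. Hsp90aa1 was at 1.48-fold (1.42 to 1.55), Hspd1 at 1.45-fold (1.36 to 1.54) and Hspa1b at 0.757 (0.634 to 0.899). In G2M cells alone, Hspa14 at 2.22-fold (1.71 to 2.85) and Hsp90aa1 at 1.67-fold (1.58 to 1.77) were higher, 2 members against 10.7%. Hspa1a was lower at 0.662 (0.495 to 0.871), 1 member against 2.39%. Without cluster 7, a comparison added after seeing the data, Hspa1a was at 0.752 (0.556 to 0.998) in G2M cells, short of the threshold, while Hspa14 was at 2.096-fold and Hsp90aa1 at 1.57-fold. The inducible sum was at 1487 CPM in G1 and 1523 CPM in S or G2M, a ratio of 1.02 (0.998 to 1.05), but the phases differed in opposite directions from G1, at 0.928 (0.895 to 0.963) in S cells and 1.12 (1.08 to 1.16) in G2M cells, or 1.21 (1.17 to 1.26) in G2M cells without cluster 7. In S or G2M cells together, without Hspb1 the ratio was 1.27 (1.22 to 1.32), and without Hspb1 and Hsp90aa1 it was 0.924 (0.861 to 0.991). Without cluster 7 the 3 ratios of S or G2M over G1 were 1.06 (1.03 to 1.09), 1.20 and 0.954 (0.886 to 1.03), and Hspa14 remained the 1 member called in S or G2M cells, at 1.73-fold, against 5.07%, and none was lower, against 1.37%.

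Cells were also split into 3 equal groups by their mitochondrial share of UMIs. Between the highest and the lowest group, none of the 37 members with enough UMIs was called, against 4.32% of all genes higher and 4.13% lower. The inducible sum was at 1373 CPM in the highest group and 1573 CPM in the lowest, a ratio of 0.873 (0.848 to 0.899). Of the 10 inducible genes, Hspb1 at 0.883 (0.8497 to 0.917) and Hsp90aa1 at 0.761 (0.721 to 0.804) were below 1, each with an interval below 1. For 7 of the other 8 the interval included 1, and Hspb8 was at 2.45 (1.26 to 4.95) on fewer than the 50 UMIs a call needed. Cycling and pit markers differed in the same comparison: 24 of 46 G2M genes, 13 of 32 S genes, 6 of 7 proliferation genes and 4 of 4 pit genes were lower in the highest group, and 1 G2M gene was higher. Their part in the chaperone ratios was not tested. The constitutive ratio was 0.948 (0.936 to 0.961), and the immediate early ratio was 1.103 (1.09 to 1.12). Between the deepest and shallowest groups by depth, the inducible ratio was 0.967 (0.936 to 0.999) and the constitutive ratio 1.07 (1.06 to 1.09).

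To see whether inducible chaperones were found in the same cells, pairs of members were compared. Spearman correlations over the 1823 thinned cells were weak throughout, and they are given as a description of sparse counts. The 21 pairs of the 7 inducible genes with enough counts had a median of -0.001, from -0.06 for Hspa1a with Hsp90aa1 to 0.07 for Hspa1a with Dnajb1. Hspa1a and Hspa1b gave 0.03. The 325 constitutive pairs had a median of 0.02, with the highest value, 0.15, for Hspa8 with Hsp90ab1. Between the classes, values ran from -0.16 for Hspb1 with St13 to 0.19 for Hspb1 with Hspa8. The highest correlation of any member pair was thus between an inducible and a constitutive gene.

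The 338 thinned cells with an Hspa1a or Hspa1b UMI held 3.87 UMIs of the other inducible genes, and the 1485 cells without one held 4.45. The ratio was 0.870 (0.819 to 0.923), and 0.911 (0.827 to 1.002) without Hspb1. With all inducible genes, it lay between 0.933 and 0.978 under stricter cell filters, with doublets kept or with thinning to 2000 UMIs. These intervals included 1. A change of cells or depth also drew the thinned UMIs anew, and the intervals do not cover the spread between draws. The interval left out 1 with 5000 UMIs, at 0.917 (0.880 to 0.956), without cluster 7, at 0.921 (0.867 to 0.977), and with the wider list, at 0.939 (0.906 to 0.973). Constitutive chaperones were at a ratio of 0.994 (0.968 to 1.02) and immediate early genes at 1.04 (1.02 to 1.07). Of 34 other members with enough UMIs, 1 was called, Hsf1 at 2.04-fold (1.14 to 3.55, from 20 and 43 UMIs), against 2.52% of all genes higher, and none lower, against 1.12%. A share of 2.94% is near that background.

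The wider chaperone network was given by lists of named relatives. Of 12 other Hsp70 and small heat shock genes, 8 were detected, led by Cryab at 49.1 CPM and Hspb11 at 42.4 CPM, and Hspa1l, Hspb3, Hspb7 and Cryaa were at 0 UMIs, which, taking 3 cells of 1880 as the limit that a count of 0 allows, leaves a share of up to 0.160% of cells with a UMI. All 11 other J-domain genes were detected, led by Dnajc8 at 160 CPM and Dnajc7 at 59.1 CPM. Of 18 other co-chaperone and ubiquitin genes, Ubb was at 1218 CPM and Stub1, a ubiquitin ligase that binds Hsp70, at 199 CPM. The 6 prefoldin genes, which pass actin and tubulin to TRiC, summed to 1402 CPM, led by Pfdn5 at 511 CPM and Pfdn1 at 385 CPM. The 15 immediate early genes summed to 9192 CPM, more than all 38 chaperones at 8519 CPM, with Fos at 2338 CPM and Atf3 at 1085 CPM.

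None of the 6 prefoldin genes was called in any of the 7 clusters, where 1.64% to 16.3% of all genes were called higher and 2.64% to 20.1% lower, and the prefoldin sum spanned 1309 to 1577 CPM. Of 9 other J-domain genes with enough UMIs, 4 were called higher in cluster 7, against 16.3% of all genes. Of the 15 immediate early genes, 14 were called lower in cluster 7, where the background was 9.35%, and 6 were called lower in cluster 4, where it was 20.1%.

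The inducible sum was also compared with single genes outside the list. Among 2998 genes outside the list with a thinned mean of at least 0.1 UMIs, the 10 highest Spearman correlations over 1823 cells were those of Aqp5 at 0.31, Tmem176a at 0.31, Tmem176b at 0.30, Rhox5 at 0.29, Wfdc2 at 0.27, Actb at 0.27, Tmsb4x at 0.27, Gm1673 at 0.24, Anxa1 at 0.24 and Gsta4 at 0.24. The median over these genes was 0.01. All points come from 1 library, and Hspb1 made up most of the sum, and with Hspb1 alone the highest values were those of Tmem176a at 0.40, Tmem176b at 0.38 and Aqp5 at 0.36.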

How the data were processed

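The deposited values are UMI counts, 1 whole number per feature and barcode in an integer matrix, per the file headers. They were made with Cell Ranger 6.1.2 and mapped to GRCm38/mm10, per the submitters' processing notes. The annotation used for counting is not given in the sources used here. The 12 multiplexing tags were kept out of all totals. Cells with at least 500 genes and at most 20% mitochondrial UMIs were kept, and 12 doublets (0.634% of 1892 cells, called with Scrublet in scanpy 1.11.5 at a threshold of 0.134) were removed.

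CPM, intervals (exact Poisson, Clopper-Pearson or conditional binomial, all 95%) and ratios were computed from summed counts. UMIs were thinned to 3000 per cell, which left out 57 of 1880 cells, for variance, correlations and comparison of cells with and without the Hsp70 pair. The running median of variance over mean used 101 genes. Clustering used 2000 variable genes, 30 principal components, 15 neighbours and Leiden (leidenalg 0.10.2) at resolution 0.6. Calls needed a 1.5-fold ratio, an interval without 1 and 50 UMIs. With 1 library no p-value was computed.

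The text names all 38 members, leading genes of each other list (1 of which is not reported here), the 10 genes most correlated with the inducible sum and the 2 leading genes of each cluster. Gene positions came from GENCODE M21. The members and lists were chosen with earlier results of these data known. The ratio calls and the excess variance calls were tested on simulated counts, with changes placed only in genes of high counts. The other steps were not tested in this way.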

Additional observations from a re-analysis of the deposited data

How the results depend on the processing

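Of 70 alternative values over 10 results and 14 settings, 40 stayed within the interval of the main value or, for a count, within 1.5 times of it, 30 moved, and no value whose main interval left out 1 changed direction. The tag ratio, whose main interval included 1, was on the other side of 1 in both settings printed for it below. With 17 inducible genes the inducible level was 3867 CPM, the constitutive level 4651 CPM, the inducible UMIs per 100 constitutive 83.1, the cluster ratio 1.74, the mitochondrial ratio 0.904 and the ratio in cells with the Hsp70 pair 0.939. Without Hspb1, an alternative chosen after seeing the data in which Hspb1 joins the constitutive genes, these were 645 CPM, 7873 CPM, 8.20 and 1.91, with a tag ratio of 0.985 and a cycle ratio of 1.27. Without cluster 7 the inducible level was 1516 CPM, the constitutive level 6952 CPM, the ratio 21.8 per 100 and the cycle ratio 1.06. Without mitochondrial and ribosomal genes in the denominator the levels were 2494 and 11710 CPM. As means over cells, the constitutive level was 6860 CPM, the ratio 21.8 per 100 and the tag ratio 0.972. Cycling by a UMI of Mki67 or Top2a gave 1.06. Resolutions of 0.3 and 1 gave cluster ratios of 1.89 and 2.43. The ratio in cells with the Hsp70 pair was 0.978 under stricter cell filters, 0.969 with doublets kept and 0.933 with 2000 UMIs. Each of these settings also drew thinned UMIs anew. Members with excess variance numbered 1 with 2000 UMIs, 4 with 5000 UMIs and 1 at 1.5 times. No share of all genes is given for these settings. The cause of these moves was not tested, apart from list membership and denominators, which change the sums by construction. Low counts limit the precision for Hspb8, Bag3, Hspbp1, Hsf1 and cluster 7. No paired analysis was possible because the samples held no replicates.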

Other observations

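The 99 barcodes outside the cell filter also held chaperone UMIs. Their inducible level was 784 CPM (633 to 961) and their constitutive level 3955 CPM (3605 to 4330), both below those of the cells. With mitochondrially encoded genes left out of the totals, the inducible level was 1105 CPM (892 to 1354) in these barcodes and 1558 CPM in the cells, and the constitutive level was 5572 CPM against 7317 CPM. The 2 inducible Hsp70 genes together were at 131 CPM (65.2 to 234, from 11 UMIs) in these barcodes and 79.4 CPM in the cells, on the same totals.

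With Hspb1 left out of the inducible sum, the genes most like the sum across cells were Top2a at a Spearman correlation of 0.13, Actb at 0.12 and Ccnd1 at 0.12, over 1823 thinned cells. These genes, and the split by Hspb1, were chosen after the values had been seen.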
